A study of Mus musculus with 90 samples.

Results

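The EGF family was read here through 9 genes: the ligands epiregulin (Ereg), amphiregulin (Areg), heparin-binding EGF-like growth factor (Hbegf), betacellulin (Btc), transforming growth factor alpha (Tgfa) and neuregulin 1 (Nrg1), and the receptors Egfr, Erbb2 and Erbb3. The members were taken by gene symbol, and 8 of the 9 had a probe set, a group of array probes read as one measurement. The 8 genes were measured by 19 probe sets, among 18193 genes and 34945 probe sets annotated to a single gene. Areg was listed for no probe set in the annotation used, so it has no value here. The group was chosen with the Stabilization values of Ereg in view, so comparisons with that group are described array by array and were not tested.

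EGF family ligands are made as membrane-anchored precursors, and the metalloproteases ADAM17 and ADAM10 cut the growth factor domain free. Epiregulin, amphiregulin, HB-EGF, betacellulin and TGF-alpha bind EGFR, and neuregulin 1 binds ERBB3 and ERBB4. ERBB2 has no known ligand of its own and pairs with the other receptors, while ERBB3 has little kinase activity and signals mainly through a partner such as ERBB2. In skin the ligands are best known from keratinocytes and wound repair, and ERBB3 is carried by melanocytes and other cells of neural crest origin.

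The study profiled RNA from subcutaneous melanoma allografts, tumours of a mouse melanoma grown under the skin, on 90 arrays of 1 platform. All tumours carried an Hgf transgene (Hgftg) together with the Cdk4 R24C/R24C mutation and were in the B6.cBrd strain. The controls received either PBS at 10 ml/kg (7 arrays) or a control IgG at 10 mg/kg (22 arrays). The other groups received an antibody to PD-L1, a mouse IgG1 with the D265A change, at 10 mg/kg. They were named by the course of the tumour: Responder (27 arrays, tumours that shrank), NonResponder (23 arrays, tumours that kept growing), Relapse (6 arrays, regrowth after the tumour had shrunk below a measurable size), GrowthDelay (2 arrays, no early growth and a tumour later) and Stabilization (3 arrays, no change of volume between consecutive measurements). Because the groups of treated tumours were defined by outcome, a difference between them is an association with outcome under the same antibody. The labels do not say that each array is a separate mouse, so the p-values measure the spread between these samples.

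The sample titles fell into 4 number ranges, called title series here. The larger series held 53 arrays of 6 groups, the smaller held 25 arrays of 4 groups, and the remaining 8 IgG arrays and 4 PBS arrays formed a series each. GrowthDelay arrays occurred only in the larger series and Stabilization arrays only in the smaller one. Values are the deposited log2 expression values, whose median per array lay between 5.71 and 5.90. The level of a probe set depends on its probes, so levels are compared between samples and not between genes. An array's mean correlation with the other 89 ranged from 0.901 to 0.984. Below 0.96, a limit chosen after the values were seen, lay 7 arrays: Responder replicates 4, 20 and 21, NonResponder replicate 14, PBS replicate 5, and Stabilization replicates 1 and 2. Results that move without these 7 arrays are given both ways.

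The label of melanoma was checked against a score, the mean log2 value of 10 melanocyte markers. Its median over the 90 arrays was 10.08, and it fell as low as 6.70 in Responder replicate 21, 6.78 in Responder replicate 20 and 6.95 in Stabilization replicate 1. In these bulk samples fewer cells of a type and less RNA per cell cannot be told apart. Scores of other cell types are given beside the members they move with. Of 12 keratinocyte markers, 5 were lower and 1 was higher in Responder than in NonResponder tumours, a comparison in which 47% of all genes passed the test, and their score lay between 4.40 and 5.44 on every array.

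**Figure D1:**
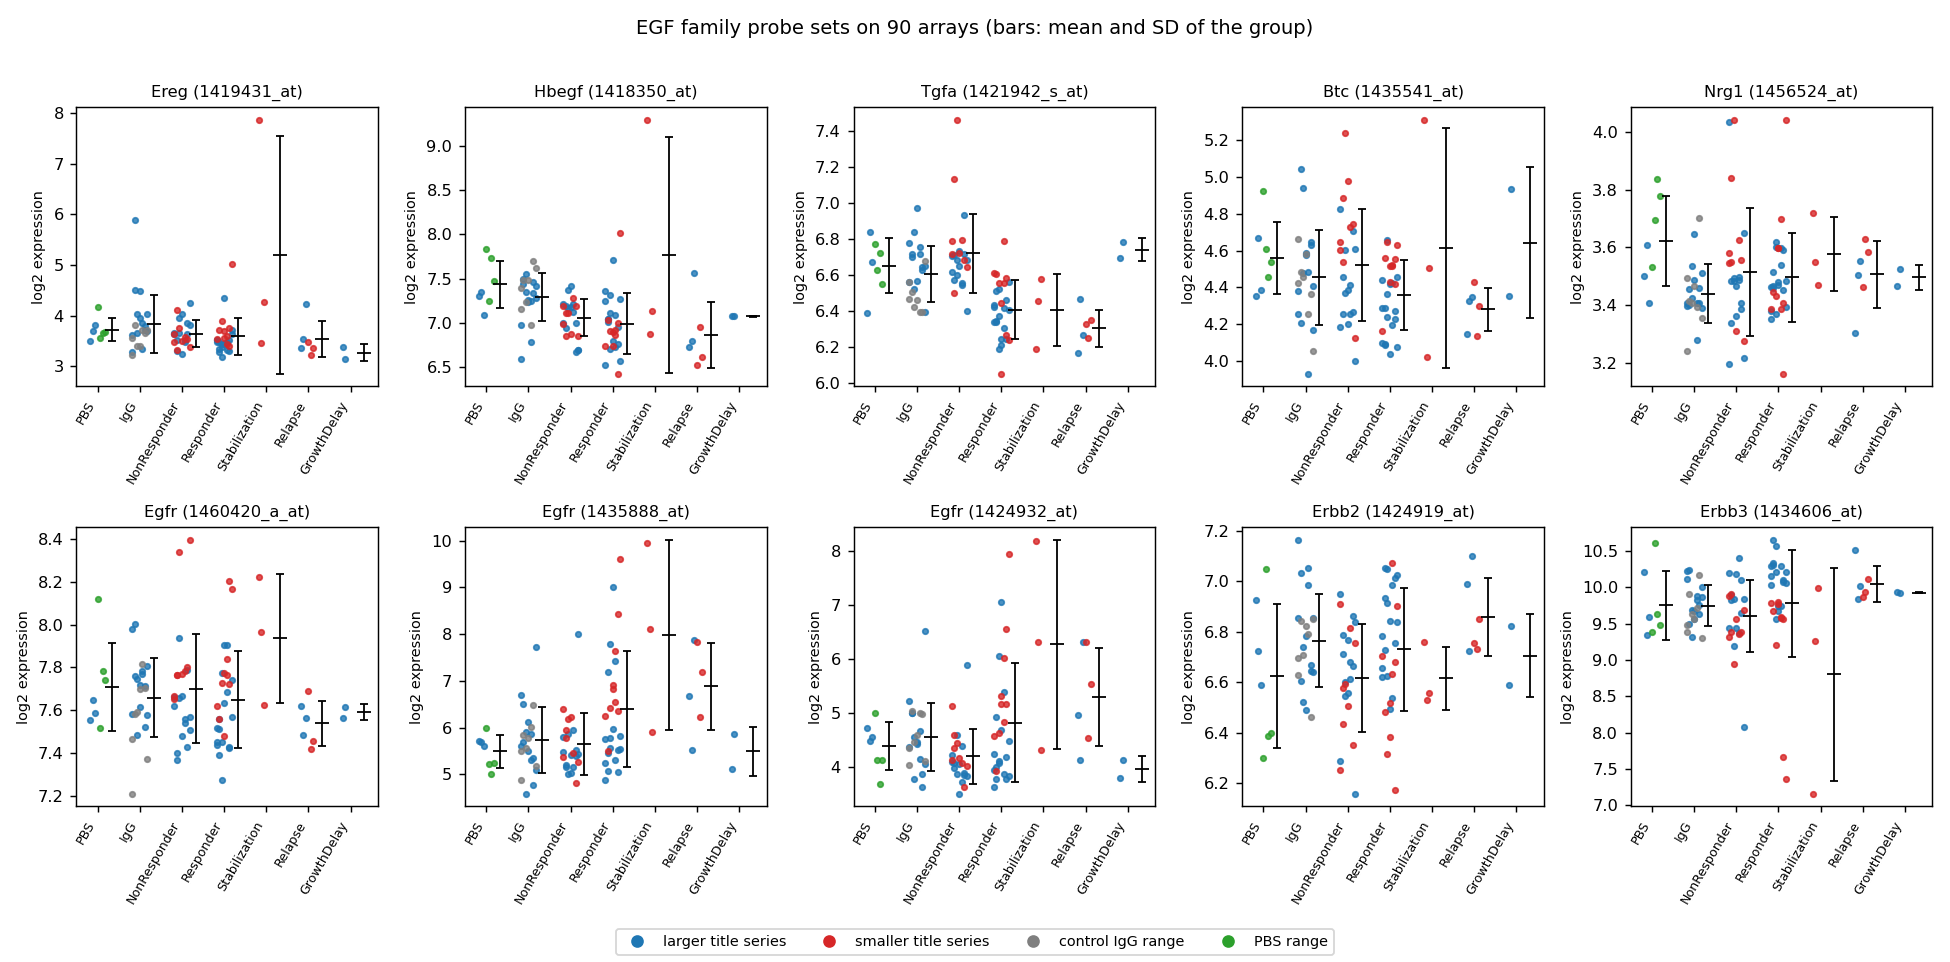
Log2 expression of 10 probe sets on the 90 arrays by group: the brightest probe set of each of the 8 measured members and 2 further Egfr probe sets. Points are arrays coloured by title series, and the bar beside them is the group mean with its SD. Stabilization replicate 1 stands above every other array for Ereg at 7.86 and for Hbegf at 9.29, while the Tgfa points of the Responder and Relapse groups sit low.

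Tgfa was lower in tumours that had responded to the antibody, in both title series, and had the smallest adjusted p of the 5 measured ligands. TGF-alpha is an EGFR ligand long studied in autocrine growth of tumours. In Responder tumours its log2 values had a lowest, median and highest of 6.05, 6.42 and 6.79 (n = 27), against 6.40, 6.69 and 7.46 in NonResponder tumours (n = 23). Relapse tumours were at 6.17, 6.30 and 6.47 (n = 6), IgG tumours at 6.39, 6.60 and 6.97 (n = 22) and PBS tumours at 6.39, 6.67 and 6.84 (n = 7). The GrowthDelay arrays read 6.69 and 6.78, and the Stabilization arrays 6.19, 6.45 and 6.58. Responder and Relapse tumours were thus low and the controls lay near the NonResponder tumours, with overlap between the groups in each case.

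Tgfa was 0.31 ± 0.05 (SE) lower on the log2 scale in Responder than in NonResponder tumours, a 1.24-fold difference (limma with title series as a term, Benjamini-Hochberg adjusted over 18193 genes, adjusted p = 5.17e-05). Within the larger series the Responder values ran from 6.19 to 6.56 and the NonResponder values from 6.40 to 6.94, a difference of -0.28 (limma, adjusted p = 0.00906). Within the smaller series they ran from 6.05 to 6.79 and from 6.50 to 7.46, a difference of -0.36 (limma, adjusted p = 0.00105). Against IgG tumours, Tgfa in Responder tumours was lower by 0.31 (limma, adjusted p = 0.000175), and within the larger series, the only one that holds both groups, by 0.30 (adjusted p = 0.000623). In Relapse tumours it was 0.43 ± 0.08 lower than in NonResponder tumours, or 1.35-fold (limma, adjusted p = 0.00191). By series that difference was -0.52 in the smaller (limma, adjusted p = 0.00528) and -0.35 in the larger (adjusted p = 0.531). These comparisons share their Responder, NonResponder and IgG arrays and are not independent of each other.

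The other Tgfa probe sets tracked the first one less well. Probe set 1450421_at, which correlated with it at r = 0.502 over the 90 arrays, was 0.14 lower in Responder than in NonResponder tumours (limma over 34945 probe sets, adjusted p = 0.0226). Probe set 1421943_at, with r = -0.174, differed by 0.02 (adjusted p = 0.856). With the mean of the 3 probe sets the Responder minus NonResponder difference was -0.14 (limma, adjusted p = 0.00185), and that from IgG was -0.13 (adjusted p = 0.0162). The probe set described first is of a kind that can match transcripts of more than one gene.

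Macrophage markers moved opposite to Tgfa. Of 10 markers, 9 were higher in Responder than in NonResponder tumours, among them Csf1r, the receptor of macrophage colony stimulating factor, by 1.32. The macrophage score had a median of 10.05 (range 7.94 to 11.49) in Responder, 8.99 (7.76 to 11.34) in NonResponder, 10.02 (8.94 to 10.27) in Relapse and 9.15 (8.44 to 11.02) in IgG tumours. Across the 90 arrays, each centred on its title series, Tgfa and the macrophage score had r = -0.552 and rho = -0.600 (permutation p = 1e-05 for both, the smallest that the permutations can give, or 1.5e-05 and 1.8e-05 adjusted over 9 such relations). The correlation was -0.511 without the 2 arrays farthest from the median score, -0.593 in the larger series, -0.547 in the smaller and -0.566 among the 22 IgG arrays alone, uncentred. These 9 relations were picked after the values were seen, and the part of macrophage content in the Tgfa difference was not tested.

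Betacellulin, an EGFR and ERBB4 ligand, read below its array's median on all 90 arrays. Its lowest, median and highest values were 4.03, 4.42 and 4.66 in Responder, 4.00, 4.54 and 5.24 in NonResponder and 3.93, 4.47 and 5.04 in IgG tumours. The groups overlap over most of this range. Btc was 0.16 ± 0.07 lower in Responder than in NonResponder tumours (limma, adjusted p = 0.0497) and 0.21 lower than in IgG tumours (adjusted p = 0.0397). The first difference lies at the threshold. After quantile normalization the differences were -0.11 (limma, adjusted p = 0.172) and -0.14 (adjusted p = 0.194), and without the title series neither was called. Within the larger series the difference from IgG was -0.21 (limma, adjusted p = 0.0684). In Relapse tumours, at 4.13, 4.31 and 4.43, Btc was 0.27 below the NonResponder mean (limma, adjusted p = 0.0702).

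Thus 2 of the 5 measured ligands, and 2 of the 8 members, were called lower in Responder than in NonResponder tumours and none was called higher. Over all genes 47% were called in that comparison, 29.8% lower and 17.2% higher, so the members' share is near the background. The same 2 ligands were called against IgG, where 37.3% of genes were called, 22.8% lower and 14.5% higher. The higher genes made up 38.9% of those called against IgG, and 51.8% when each array was centred on its median. In Relapse against NonResponder tumours, Tgfa was called lower and Erbb2 higher. Of all genes 20.3% were called there, 11.9% lower and 8.43% higher. The higher share of called genes there was 41.5%, 24.7% after quantile normalization and 65.8% with dim genes left out. Leaving out dim genes also moved that share from 36.7% to 52.4% between Responder and NonResponder tumours and to 58.1% against IgG. Within series Tgfa was the 1 member called between Responder and NonResponder tumours, where 2.63% of genes were called in the larger and 36.7% in the smaller series. Against IgG in the larger series 27.3% of genes were called, and in Relapse against NonResponder tumours 0% in the larger and 13.1% in the smaller series. The median difference of the 5 ligands between Responder and NonResponder tumours was -0.07, that of all genes -0.06.

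**Figure D2:**
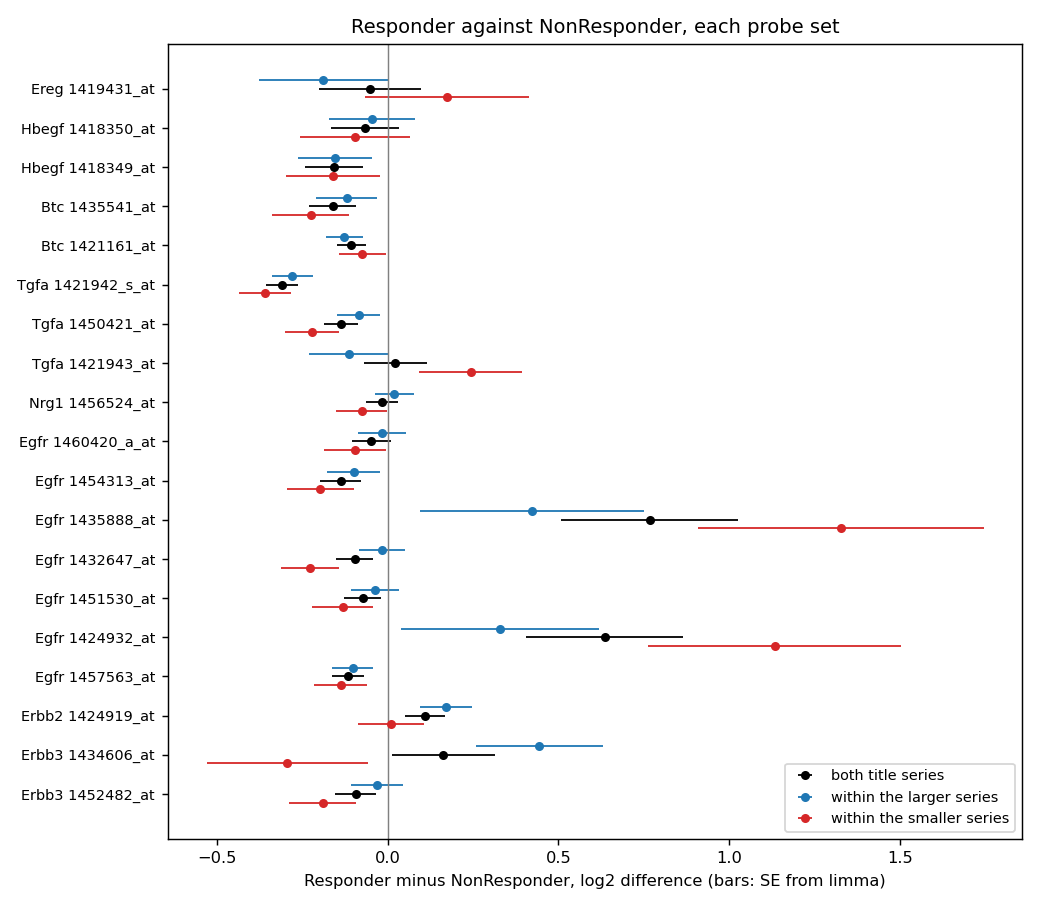
Log2 difference between Responder and NonResponder tumours for the 19 member probe sets, over both title series (black) and within the larger (blue) and the smaller (red) one, with bars of 1 SE from limma. The brightest Tgfa probe set lies below 0 in both series, at -0.28 and -0.36, while the brightest Erbb3 probe set lies at 0.44 in the larger and -0.29 in the smaller series.

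Epiregulin, a low-affinity and long-acting EGFR ligand linked to inflammation and repair, was dim in nearly all tumours. It read above its array's median on 2 of the 90 arrays. Lowest, median and highest values were 3.19, 3.51 and 5.01 in Responder, 3.24, 3.64 and 4.26 in NonResponder, 3.22, 3.43 and 4.23 in Relapse, 3.22, 3.72 and 5.89 in IgG and 3.50, 3.69 and 4.17 in PBS tumours. The medians of these 5 groups differ by less than the range within any of them. The GrowthDelay arrays read 3.39 and 3.15, the latter the lowest of the 90.

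Responder and NonResponder tumours differed in Ereg by -0.05 ± 0.15 (limma, adjusted p = 0.783). Against IgG the Responder difference was -0.42 ± 0.18 (limma, adjusted p = 0.0583), and within the larger series -0.50 ± 0.19 (adjusted p = 0.0413). That difference leaned on IgG replicate 9, whose 5.89 was the second highest Ereg value of all. Without this array, a choice made after seeing it, the differences were -0.27 (limma, adjusted p = 0.185) over all arrays and -0.35 (adjusted p = 0.109) in the larger series. Without the 7 arrays of low correlation the difference over all arrays was -0.49 (limma, adjusted p = 0.00206). With those arrays and IgG replicate 9 all left out, the differences over all arrays and in the larger series were -0.35 (limma, adjusted p = 0.00342) and -0.41 (adjusted p = 0.00159). Over all arrays the SE was 0.17 without IgG replicate 9 and 0.09 with the arrays of low correlation out as well. All groups share 1 estimate of the spread in this fit. The arrays left out include Stabilization replicate 1, which is in neither group compared.

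In the Stabilization group the Ereg values of replicates 1, 2 and 3 were 7.86, 3.47 and 4.27. Replicate 1 was the highest of all 90 arrays, replicate 3 ranked 7 and replicate 2 ranked 66. The 22 arrays of the other groups in the smaller series lay between 3.22 and 5.01. A single array therefore carried the group's level, whose mean of 5.20 ± 2.34 (SD, n = 3) stood 1.61 above the NonResponder mean of that series. Without replicate 1 the difference was 0.28, and without replicates 2 and 3 in turn it was 2.48 and 2.08. No test was made of these differences.

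HB-EGF, an EGFR ligand of wound repair and macrophages, stood out on the same array. Hbegf read 9.29, 6.87 and 7.14 in Stabilization replicates 1, 2 and 3, and its second probe set 1418349_at read 8.30, 6.74 and 7.07. Btc read 5.31, 4.02 and 4.51, and Erbb3 read 7.16, 9.26 and 9.99. Replicate 1 was thus high for 3 ligands and low for Erbb3, though its Btc value was just above the next array of the series at 5.24. Replicates 2 and 3 lay within the range of the other 22 arrays of the series on these genes, except that Btc in replicate 2 was below the lowest of them, 4.12. For Tgfa and Erbb2 (6.76, 6.53 and 6.56) and for Nrg1 (3.72, 3.55 and 3.47) the 3 arrays lay closer together. Even so, replicate 1 was low for Tgfa, where its 6.19 ranked 88 of 90. On the other Tgfa probe sets, 1450421_at and 1421943_at, it ranked 89 and 7.

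**Figure D3:**
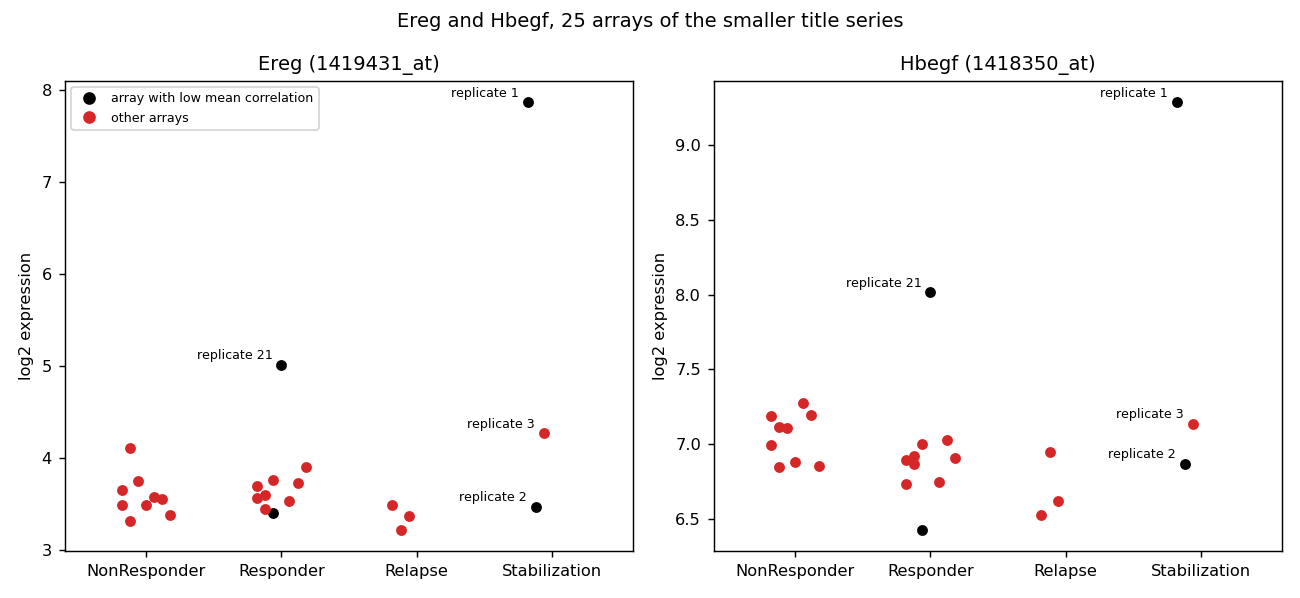
Log2 values of Ereg and Hbegf on the 25 arrays of the smaller title series, by group. Points are arrays, black where the mean correlation with other arrays is low. Stabilization replicate 1 leads at 7.86 for Ereg and 9.29 for Hbegf, and Responder replicate 21 follows at 5.01 and 8.02.

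Cell type scores also set these arrays apart. The score of 12 neutrophil and inflammatory myeloid genes, with a median of 6.02 over all arrays, was 8.99, 7.50 and 7.82 in Stabilization replicates 1, 2 and 3, and replicate 1 was the highest of all. The fibroblast score, with a median of 9.20, was 12.17, 11.19 and 9.68, and the melanocyte score was 6.95 and 8.89 in replicates 1 and 2. Counted from the highest of 90 arrays, replicate 1 ranked 1 for the fibroblast score, 88 for the melanocyte score and 1 for Ereg. Replicate 2 ranked 5, 86 and 66. IgG replicate 9, with the second highest Ereg value, had an inflammatory myeloid score of 7.14. Of the 12 inflammatory genes, 4 were higher and 1 was lower in Responder than in NonResponder tumours, and 2 were higher and 2 lower than in IgG tumours. The part of cell composition in the Ereg values was not tested.

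Ereg and Hbegf correlated across the 90 arrays at r = 0.754 and rho = 0.549 after centring on title series. The relations of Ereg are descriptions without a p, since its Stabilization values were in view when it was chosen. The correlation was 0.452 without the 2 farthest arrays, 0.456 in the larger series, 0.935 in the smaller and 0.530 without the Stabilization arrays, so its size rests on a few arrays. Ereg and the inflammatory myeloid score had r = 0.632 and rho = 0.555. That correlation was 0.585 without the 2 farthest arrays, 0.590 and 0.71 in the larger and smaller series, 0.603 without the Stabilization arrays and 0.690 among the IgG arrays. Hbegf and the same score had r = 0.482 (permutation p = 1e-05, adjusted 1.5e-05) and rho = 0.308 (permutation p = 0.00305, adjusted 0.00457), with 0.314 without the 2 farthest arrays, 0.392 and 0.575 by series, and 0.296 without the 7 arrays of low correlation.

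The genes whose pattern over the 90 arrays was most like that of Ereg were Inhba, which encodes the activin A subunit (r = 0.896), Mmp10, a stromelysin (0.769), the cytokine gene Il11 (0.766), Wnt5a (0.761) and the hyaluronan synthase gene Has2 (0.761). Inhba read 10.46 in Stabilization replicate 1 and 7.65 in IgG replicate 9, its highest and second highest values. Over the 83 arrays without those of low correlation, Inhba kept r = 0.784, while Mmp10 was at 0.375, Il11 at 0.449, Wnt5a at 0.429 and Has2 at 0.471. Most like Hbegf were P3h4 (0.771), Ereg (0.754) and Cd14 (0.749), which over the 83 arrays were at 0.505, 0.462 and 0.594. Most like Tgfa were Dbh (0.779), Fbll1 (0.776) and Susd4 (0.772). These correlations are descriptions over arrays that share their tumour composition and carry no test.

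Outside the Stabilization group the highest Hbegf value was 8.02, in Responder replicate 21. Its lowest, median and highest values were 6.43, 6.95 and 8.02 in Responder, 6.67, 7.11 and 7.41 in NonResponder, 6.52, 6.76 and 7.56 in Relapse, 6.59, 7.34 and 7.70 in IgG and 7.09, 7.35 and 7.84 in PBS tumours. The GrowthDelay arrays read 7.07 and 7.08. Responder tumours differed from NonResponder tumours by -0.07 ± 0.10 (limma, adjusted p = 0.58) and from IgG tumours by -0.23 ± 0.12 (adjusted p = 0.121). Without the 7 arrays of low correlation the latter was -0.27 (limma, adjusted p = 0.0105). Its second probe set, 1418349_at, was then also 0.21 lower in Responder than in NonResponder tumours (limma, adjusted p = 0.003), where all arrays together gave -0.16 (adjusted p = 0.124).

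Neuregulin 1 was read by 1 probe set that lay below the array median on every array. Its values ran from 3.16 to 4.04 in Responder, 3.20 to 4.04 in NonResponder, 3.30 to 3.63 in Relapse, 3.24 to 3.70 in IgG and 3.41 to 3.84 in PBS tumours. Responder and NonResponder tumours differed by -0.02 ± 0.05 (limma, adjusted p = 0.773). A probe set this dim limits what can be read of this ligand of ERBB3.

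Of the receptors, Egfr gave different answers on different probe sets. The brightest, 1460420_a_at, read above the median on all 90 arrays, with lowest, median and highest values of 7.27, 7.62 and 8.20 in Responder and 7.37, 7.66 and 8.39 in NonResponder tumours. Relapse tumours were at 7.42, 7.52 and 7.69 and IgG tumours at 7.21, 7.70 and 8.0, so all 4 groups overlapped widely. The Responder minus NonResponder difference was -0.05 ± 0.06 (limma, adjusted p = 0.483), and that from IgG was -0.15 ± 0.07 (adjusted p = 0.0662). Without the 7 arrays of low correlation the difference from IgG was -0.18 (limma, adjusted p = 0.0285), and with IgG replicate 9 out as well it was -0.16 (adjusted p = 0.0507). It was -0.25 after quantile normalization (limma, adjusted p = 0.0126) and -0.01 without the title series (adjusted p = 0.903).

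Probe sets 1435888_at and 1424932_at, singled out after their values were seen, had the largest SD of the 7 Egfr probe sets and followed each other at r = 0.953. For 1435888_at the lowest, median and highest values were 4.88, 5.97 and 9.61 in Responder, 4.82, 5.46 and 8.01 in NonResponder, 5.51, 6.94 and 7.87 in Relapse, 4.58, 5.64 and 7.72 in IgG and 5.00, 5.61 and 5.98 in PBS tumours. The Stabilization arrays read 9.95, 8.11 and 5.90. The groups overlapped in their lower values, the highest array was Stabilization replicate 1, and the highest IgG array (7.72) lay below the highest Responder, NonResponder and Relapse arrays.

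In the fit over 34945 probe sets, 1435888_at was 0.77 ± 0.26 higher in Responder than in NonResponder tumours (limma, adjusted p = 0.0163) and 1.17 ± 0.42 higher in Relapse than in NonResponder tumours (adjusted p = 0.0479). For 1424932_at these differences were 0.64 ± 0.23 (limma, adjusted p = 0.0235) and 1.04 ± 0.37 (adjusted p = 0.0471). By series the Responder difference of 1435888_at was 1.33 in the smaller (limma, adjusted p = 0.0148) and 0.42 in the larger (adjusted p = 0.407). Without the 7 arrays of low correlation it was 0.57 over both (limma, adjusted p = 0.017) and 0.83 in the smaller series (adjusted p = 0.0714). Responder and IgG tumours differed by 0.42 on 1435888_at (limma, adjusted p = 0.295) and by 0.07 on 1424932_at.

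Other Egfr probe sets differed from these. Against IgG, where neither of these was called, 3 were lower in Responder tumours: 1454313_at by 0.23 (limma, adjusted p = 0.0168), 1432647_at by 0.24 (adjusted p = 0.00646) and 1457563_at by 0.16 (adjusted p = 0.0332). The last was also 0.12 lower than in NonResponder tumours (limma, adjusted p = 0.0433). It read below the array median on every array and followed the brightest Egfr probe set at r = 0.108. The annotation lists the same source sequence for 1454313_at and 1432647_at, which followed each other at r = 0.325. Of the 19 member probe sets, 2 were called higher and 4 lower in Responder than in NonResponder tumours, and over all probe sets 40.6% were called, 15.1% higher and 25.4% lower. Within series, 30.6% of all probe sets were called in the smaller and 1.73% in the larger. Against IgG, 5 member probe sets were called lower and none higher, where 30.3% of all probe sets were called, 18.2% lower and 12.1% higher. In Relapse against NonResponder tumours 2 were called higher and 1 lower, where 14.5% were called, 5.9% higher and 8.6% lower.

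The 2 wide-ranging Egfr probe sets moved with fibroblast markers. Of 9 fibroblast genes, 8 were higher in Responder than in NonResponder tumours, with Col1a1, a collagen chain, at 1.44 and Pdgfra, a growth factor receptor of fibroblasts, at 1.09, and 1 (Fbln1) was lower. In Relapse against NonResponder tumours 5 were higher and 1 lower. The fibroblast score had a median of 9.63 (range 7.0 to 11.91) in Responder, 8.94 (6.45 to 11.12) in NonResponder, 10.13 (8.85 to 10.87) in Relapse and 9.19 (7.63 to 10.99) in IgG tumours.

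With this score 1435888_at had r = 0.894 and rho = 0.919, and 1424932_at had r = 0.872 and rho = 0.872 (permutation p = 1e-05 for each, adjusted 1.5e-05 and 1.8e-05). For 1435888_at the correlation was 0.915 without the 2 farthest arrays, 0.895 and 0.953 by series, 0.865 without the 7 arrays of low correlation and 0.945 among the 22 IgG arrays. For 1424932_at these values were 0.876, 0.881, 0.933, 0.839 and 0.897. The brightest Egfr probe set had r = 0.238 (permutation p = 0.0237, adjusted 0.0237) and rho = 0.264 (permutation p = 0.0128, adjusted 0.0164) with the same score, r = 0.210 without the 2 farthest arrays and r = 0.108 without the 7 arrays of low correlation. The genes most like 1435888_at were Tgfbr3 (r = 0.963), Ptgfrn (0.958) and Bicc1 (0.943). Stabilization replicate 1 and Responder replicates 21 and 4 ranked 1, 2 and 3 of 90 for 1435888_at. They ranked 1, 2 and 3 in the macrophage score and 4, 2 and 3 in a score of endothelial markers. Correlations of these probe sets with scores other than the fibroblast score were not computed. Whether the Egfr differences between groups go beyond the content of fibroblasts or other cell types was not tested.

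**Figure D4:**
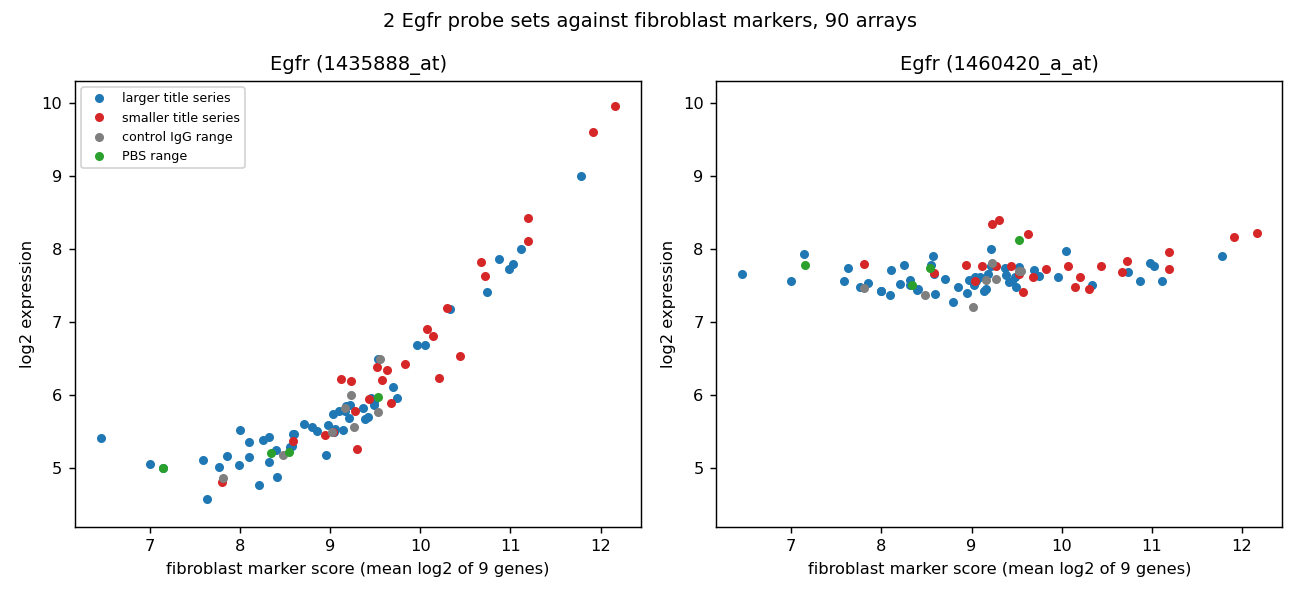
Log2 values of 2 Egfr probe sets against the fibroblast score (mean log2 of 9 marker genes) on the 90 arrays, coloured by title series. Probe set 1435888_at follows the score (r = 0.894 after centring on title series), and the brightest probe set, 1460420_a_at, shows little relation to it (r = 0.238).

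Erbb3, the neuregulin receptor, was bright in every group and differed in its low values. The lowest, median and highest were 7.37, 9.79 and 10.65 in Responder, 8.07, 9.65 and 10.41 in NonResponder, 9.84, 9.98 and 10.52 in Relapse, 9.31, 9.70 and 10.24 in IgG and 9.35, 9.59 and 10.62 in PBS tumours. The GrowthDelay arrays read 9.93 and 9.92. In the larger series the Responder values lay between 9.57 and 10.65, and in the smaller between 7.37 and 9.79.

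Over all arrays Erbb3 differed by 0.16 ± 0.15 between Responder and NonResponder tumours (limma, adjusted p = 0.364), by 0.17 from IgG (adjusted p = 0.464) and by 0.50 ± 0.24 between Relapse and NonResponder tumours (adjusted p = 0.11). By series the Responder difference was 0.44 in the larger (limma, adjusted p = 0.127) and -0.29 in the smaller (adjusted p = 0.315). The test of the difference between the series gave -0.74 (limma, adjusted p = 0.341). Without the 7 arrays of low correlation, Erbb3 was 0.27 higher in Responder than in NonResponder tumours (limma, adjusted p = 0.0098), with 0.35 in the larger (adjusted p = 0.0267) and 0.13 in the smaller series (adjusted p = 0.543). It was then also 0.29 higher than in IgG tumours and 0.41 higher in Relapse than in NonResponder tumours.

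Of these 7 arrays, Stabilization replicate 1, Responder replicates 20 and 21 and NonResponder replicate 14 had the lowest Erbb3 values of all 90. PBS replicate 5, also among the 7, ranked 2 from the highest at 10.62. The 7 arrays hold most of the low melanocyte scores. Of 10 melanocyte markers, 3 were lower in Responder than in NonResponder tumours, near the 29.8% of all genes that were lower there. Among the 3 was Pmel, a pigment granule protein, by 0.93. Pmel had a median of 11.76 and read 5.91 in Responder replicate 20 and 6.31 in Stabilization replicate 1. Erbb3 and the melanocyte score had r = 0.714 (permutation p = 4e-05, adjusted 5.1e-05) and rho = 0.244 (permutation p = 0.0575, adjusted 0.0647), with 0.563 without the 2 farthest arrays, 0.251 in the larger series, 0.931 in the smaller and -0.207 without the 7 arrays. The relation rests on those arrays. With the fibroblast score, Erbb3 had r = -0.271 (permutation p = 0.0106, adjusted 0.0119), rho = 0.012 (permutation p = 0.91, adjusted 0.91) and r = -0.179 without the 2 farthest arrays. That correlation was -0.090 in the larger and -0.589 in the smaller series, and turned to 0.202 without the 7 arrays. The genes most like Erbb3 were the neural crest factors Sox10 (r = 0.923, 0.792 without the 7 arrays) and Tfap2b (0.918 and 0.817), and Sun1 (0.914 and 0.728).

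**Figure D5:**
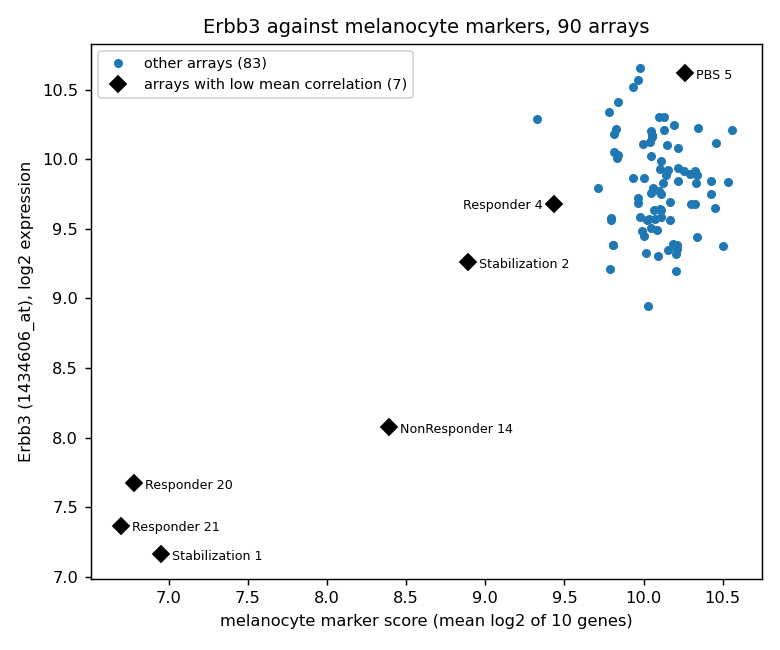
Erbb3 (log2) against the melanocyte score (mean log2 of 10 marker genes) on the 90 arrays, with the 7 arrays of low mean correlation marked. Responder replicates 20 and 21 and Stabilization replicate 1 lie low on both axes. NonResponder replicate 14 (Erbb3 8.07, score 8.39) and Stabilization replicate 2 (9.26 and 8.89) lie between them and most other arrays.

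Erbb2, the partner receptor, showed small differences. Its lowest, median and highest values were 6.17, 6.73 and 7.07 in Responder, 6.16, 6.61 and 6.95 in NonResponder, 6.72, 6.80 and 7.10 in Relapse, 6.46, 6.76 and 7.16 in IgG and 6.30, 6.59 and 7.05 in PBS tumours. Relapse tumours were at the upper end of the NonResponder range. Erbb2 was 0.26 ± 0.10 higher in Relapse than in NonResponder tumours, or 1.20-fold (limma, adjusted p = 0.0474), with 0.29 in the larger and 0.20 in the smaller series. The call was lost when Relapse replicate 1, 3, 4, 5 or 6 was left out, and after quantile normalization, where the difference was 0.17 (adjusted p = 0.198). Responder and NonResponder tumours differed by 0.11 ± 0.06 (limma, adjusted p = 0.119).

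The remaining comparisons gave no call for any member. Between NonResponder and IgG tumours limma called 0% of the 18193 genes, with 838 genes and none of the members at an unadjusted p under 0.05. The difference of Ereg was -0.37 ± 0.19, that of Tgfa -0.0019 ± 0.06, and within the larger series that of Tgfa was -0.02. Without IgG replicate 9 the Ereg difference was -0.22 ± 0.17. With the arrays of low correlation left out as well it was -0.24 ± 0.09 (limma, unadjusted p = 0.011, adjusted p = 0.359). Between Relapse and Responder tumours limma also called 0% of genes, with 803 genes and no member at an unadjusted p under 0.05, and the members ran from -0.14 (Egfr) to 0.34 (Erbb3). Between IgG and PBS tumours 0.0055% of genes were called, and 240 genes and no member had an unadjusted p under 0.05. The interaction of the Responder difference with title series was called for 0% of genes. At an unadjusted p under 0.05 it held 2418 genes and 1 member, Erbb3.

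The other genes of the pathway were read from lists by role. Among 6 further ligand and receptor genes, Nrg2, a neuregulin, was lower in Responder than in NonResponder tumours by 0.21 (limma, adjusted p = 0.00171), and the receptor gene Erbb4 by 0.11 (adjusted p = 0.0276). Nrg3 differed by -0.04 and passed no test. Nrg2 was also lower than in IgG by 0.25 (limma, adjusted p = 0.00371) and lower in Relapse than in NonResponder tumours by 0.26 (adjusted p = 0.0327). These 2 of 6 genes compare with 29.8% of all genes lower in the first comparison, where the median of the list was -0.04 and that of all genes -0.06. With dim genes left out the median of all genes there was 0.0096. The mean log2 value of the list lay between 4.34 and 4.89, below the lowest array median of 5.71. A list this dim limits what can be read of these differences.

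Genes of ligand release were higher where they were called. Of 6 measured, 4 were higher in Responder than in NonResponder tumours, where 17.2% of all genes were: the sheddase Adam17 by 0.39 ± 0.09 (limma, adjusted p = 0.00116), Adam10 by 0.23 ± 0.06 (adjusted p = 0.00176), and by 0.26 and 0.25 Rhbdf2 and Frmd8, whose products support ADAM17 at the cell surface. Against IgG, Adam10 (0.24), Adam17 (0.36) and Frmd8 (0.35) were higher, and Adam10 (0.28) and Rhbdf1 (0.45) were higher in Relapse than in NonResponder tumours. The median of the list was 0.24 in the first comparison. The mean log2 value of the list and the macrophage score had the same highest arrays: Stabilization replicate 1 ranked 1 of 90 in both, Responder replicate 21 ranked 2, Responder replicate 4 ranked 3, Stabilization replicate 2 ranked 4 and NonResponder replicate 14 ranked 5. The fibroblast score ranked these arrays, in the same order, 1, 2, 3, 5 and 6. A score of endothelial markers ranked them 4, 2, 3, 9 and 6. All of them are among the arrays of low correlation. The part of macrophages or other cell types in the differences between groups was not tested, and RNA of the proteases does not measure ligand release.

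Of 14 listed receptor adaptors and MAP kinases 9 were measured, and 2 were higher in Responder than in NonResponder tumours: the adaptor Grb2 by 0.30 (limma, adjusted p = 0.01) and the phosphatase Ptpn11 by 0.17 (adjusted p = 0.0398). Map2k1, a kinase that activates ERK, differed by 0.16 (adjusted p = 0.0522). Against IgG, 4 were higher, Ptpn11 (0.33), Grb2 (0.33), Map2k1 (0.23) and Map2k2 (0.25), and in Relapse against NonResponder tumours Ptpn11 (0.48) and Map2k1 (0.33). The list medians were 0.17, 0.23 and 0.33 in these comparisons, in which 17.2%, 14.5% and 8.43% of all genes were higher.

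Of 12 feedback inhibitors, 3 were higher and 1 lower in Responder than in NonResponder tumours, a comparison in which 47% of all genes were called. The ubiquitin ligase genes Cblb and Cbl, whose products send EGFR to degradation, were higher by 0.75 ± 0.17 (limma, adjusted p = 0.000733) and 0.46 ± 0.12 (adjusted p = 0.00309). Lrig1, which restrains ERBB receptors, was lower by 0.16 (adjusted p = 0.00602). Dusp5, an ERK phosphatase named after its value was seen, was higher by 0.29 (adjusted p = 0.0113). Against IgG, Cblb (0.80), Cbl (0.56) and Rasa1 (0.16) were higher, and Cbl was higher by 0.56 in Relapse than in NonResponder tumours (limma, adjusted p = 0.0409). CBL-B is also widely expressed in immune cells, and 7 of 9 T cell markers were higher in Responder than in NonResponder tumours, with a median of 1.19. The part of T cells in the Cblb difference was not tested.

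Of 11 target genes of the pathway, Jun was higher in Responder than in NonResponder tumours by 0.67 ± 0.21 (limma, adjusted p = 0.00779) and Ccnd1, the cyclin D1 gene, by 0.27 ± 0.11 (adjusted p = 0.0302). Egr1 differed by 0.34 (adjusted p = 0.115). Against IgG, Jun (0.79) and Ccnd1 (0.39) were higher, and Ccnd1 was higher by 0.49 in Relapse than in NonResponder tumours (limma, adjusted p = 0.0382). These 2 of 11 genes compare with 47% of all genes called between Responder and NonResponder tumours, 17.2% of all genes being higher, and the median of the list was 0.13. In NonResponder against IgG, Relapse against Responder and IgG against PBS tumours no gene of these lists was called by limma.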

How the data were processed

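The deposited table held log2 expression values of 45101 probe sets on 90 arrays. RMA and limma are named, without versions or roles, in the submitters' processing notes, and the genome build is not given in the sources used here. Depth does not apply to arrays, so the number of arrays limits the precision. Probe sets were named through the platform annotation. Control probe sets (64), probe sets with several symbols (932) and those not listed (9160) were left out. Of several probe sets of a gene (9010 genes) the one of the highest mean was used, and all were fitted in a second run.

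limma 3.58.1 in R 4.3.3 was fitted to all 90 arrays with group and title series as terms, two-sided, with Benjamini-Hochberg adjustment over all features and a threshold of 0.05. A second model with a mean per group and series gave the within-series differences. Relations used Python 3.11.15, numpy 2.4.6, scipy 1.17.1 and pandas 2.3.3, with 100000 permutations within title series. The procedure was tested on simulated data. Scores are means of log2 values. Members and lists were chosen with earlier results of these data known. Named genes were all members, of each pathway list the 3 of smallest p between Responder and NonResponder and up to 3 called in other comparisons, and the genes of highest correlation with a member. Alternatives were quantile normalization, median centring, a filter on a mean under 6 in every group, the mean of all probe sets, all probe sets as features, no title series, title series as a random block, array weights, and arrays left out.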

Additional observations from a re-analysis of the deposited data

Results flagged for a closer look

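In groups of 4 to 10 arrays, 5 of 60 sets of values held an array whose gap to its nearest neighbour was large for the group's range, where chance gives about 1 in 20. In the smaller series, Responder replicate 21 read 5.01 for Ereg, with the nearest Responder array at 3.90, and 8.02 for Hbegf, with the nearest at 7.03. This array also had a fibroblast score of 11.91 and an inflammatory myeloid score of 8.16. Its score of skeletal muscle markers, 12.80 against a median of 5.70, was the highest of the 90 arrays. Its melanocyte score of 6.70 was the lowest. The part of these cell types in the Ereg and Hbegf values was not tested. Relapse replicate 3 read 4.23 for Ereg, with the nearest Relapse array at 3.54. Responder replicate 22 read 4.16 for Btc, below the nearest Responder array of its series at 4.42. Arrays of other groups in that series lay nearer, such as NonResponder replicate 21 at 4.12. PBS replicate 5 read 7.05 for Erbb2, with the nearest PBS array of its series at 6.40.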

How the results depend on the processing

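No paired analysis was possible because the replicate numbers were given in accession order. The Tgfa calls for Responder against NonResponder and IgG tumours, and for Relapse against NonResponder tumours, held under every setting run. Of the other calls, those of Btc and Erbb2 did not hold under all settings. The call of Ereg in Responder minus IgG within the larger series was lost without IgG replicate 9 (limma, adjusted p = 0.109). The cause was not tested. No scaling moved the median of all genes by over 0.1.

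Of the 2 members called between Responder and NonResponder tumours, 1 was called after quantile normalization, with dim genes left out (which tests 5 members) and without the title series, and 5 were called with array weights. Against IgG the 2 became 1 with median centring and with dim genes left out, 6 with array weights, 6 without the arrays of low correlation and 5 without those and IgG replicate 9. A count does not name the members called. Against IgG, Btc was not called after quantile normalization, where Egfr was, nor without the title series. Between Relapse and NonResponder tumours the 2 became 1 with dim genes left out, without the title series and with it as a random block, 5 with array weights and 4 without the arrays of low correlation. Leaving out each Relapse replicate gave 1 to 2 members. Ereg in Stabilization minus NonResponder ranged from 0.28 to 2.48 with a Stabilization replicate left out. The array weights did not fully converge. Over all genes, array weights raised the count against IgG from 6791 to 11203 and in Relapse against NonResponder tumours from 3697 to 10409. The latter was 2077 after quantile normalization, 2105 of 11894 with dim genes left out, 1621 without the title series, 7942 without the arrays of low correlation, and 557 to 4064 with a Relapse replicate left out.

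No difference that changed sign was called, before or after the change. Between Responder and NonResponder tumours, quantile normalization gave 0.010 for Ereg and 0.045 for Nrg1, and the mean of all probe sets gave 0.13 for Egfr. With that mean, Egfr was at 0.21 in Relapse minus NonResponder, 0.080 in Relapse minus Responder and 0.17 in the interaction, where Tgfa was at 0.047. Erbb2 in Responder minus IgG was 0.025 with median centring, 0.024 without the arrays of low correlation, 0.098 with array weights, 0.018 without IgG replicate 9 and 0.043 without both.

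In NonResponder minus IgG, Tgfa was 0.017 after quantile normalization, 0.025 with median centring, 0.0093 with the mean of probe sets, 0.11 without the title series, 0.058 with the random block, 0.0056 without the arrays of low correlation, 0.0013 without IgG replicate 9 and 0.0088 without both. Erbb3 was -0.014 after quantile normalization, -0.14 without the title series and -0.049 with the random block. Btc was 0.0072 with the mean of probe sets, 0.067 without the title series and 0.0029 with the random block, and Egfr was 0.041 without the title series.

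Nrg1 in Relapse minus NonResponder was 0.064 after quantile normalization and -0.034 to 0.018 with a Relapse replicate left out. In Relapse minus Responder it was -0.0021 with array weights and -0.018 to 0.035 with a replicate left out, and Ereg was 0.019 without the arrays of low correlation and -0.22 to 0.0017 with a replicate left out.

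In IgG minus PBS, Btc was -0.020 after quantile normalization, -0.013 with median centring, -0.046 with the mean of probe sets, -0.11 without the title series and -0.063 with the random block. Without the title series Egfr was -0.048, Erbb3 -0.0036 and Tgfa -0.047, and with the random block Erbb3 was -0.017 and Tgfa -0.015. With array weights Hbegf was 0.14 and Nrg1 0.034.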

Other observations

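In the RefSeq gene order of GRCm38.p6, Epgn, Ereg, Areg and Btc are adjacent. Stabilization replicate 1 held the highest value of the 90 arrays for both Ereg (7.86) and Btc (5.31). Its Btc value was just above the 5.24 of NonResponder replicate 17. The second Btc probe set, 1421161_at, ranked it 6 of 90 and correlated with the first at r = 0.187. IgG replicate 9 and Responder replicate 21 ranked 2 and 3 for Ereg but 73 and 19 for Btc. The genes most like Btc were Sptbn4 (r = 0.623), Gabre (0.611) and Olfr64 (0.610). The genes most like Erbb2 were led by Cdr2l (r = 0.730), those most like the brightest Egfr probe set by Gpr4 (0.561) and those most like Nrg1 by Cyp3a11 (0.516).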
